A study of Mus with 3 samples.

Results

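The cytokine receptor genes of T cells Il2rb, Il2rg, Il21r, Il12rb1, Il12rb2, Il18r1, Il18rap, Il1r2, Il1rl1 and Ifngr1 were followed across the cells of MC38 tumors from mice with different T cell levels of the retinoic acid receptor RARα. They form a list of 10 of the 32285 genes measured, set by name and not by a threshold on a value. MC38 is a mouse colon cancer cell line, and its tumors were taken on day 16 from mice of 3 genotypes, named WT, RARα-KO and RARα-TG. RARα-KO mice carry dLck-Cre and Rara L/L, so that a Cre under the distal Lck promoter acts in T cells, and RARα-TG mice carry CD2-Rara, a transgene under the CD2 promoter. The WT strain was C57BL/6 or dLck-Cre, and which of them bore the tumor is not given in the sources used here. Suspensions were tagged with 1 antibody hashtag per genotype (C0301, C0302 and C0303), CD45.2+ CD3+ T cells were sorted from them, and these were pooled with total cells of the same tumors (unsorted by the methods, sorted by the labels) in 1 droplet library that reads transcripts at their 5′ end. The labels also name spleen, C57BL/6 and activated naive CD8 T cells for every sample, which does not match the tumor protocol in the same labels, and the protocol was followed. Most experiments used young adult mice of matched age and both sexes, but neither the number nor the age of those used here is given, so each genotype is 1 sample. Genotypes were therefore compared without a test, and all intervals are 95% intervals that cover counting error only.

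A cytokine acts through receptor chains that come together at the cell surface and engage Janus kinases or, in the IL-1 family, Myd88. Il2rb and Il2rg encode the beta chain and the common gamma chain through which IL-2 and IL-15 signal, and Il21r joins the same gamma chain for IL-21. Il12rb1 and Il12rb2 form the IL-12 receptor, and Il18r1 and Il18rap form the IL-18 receptor. IL-12 and IL-18 are known for raising interferon gamma production in T cells. Il1r2 encodes a decoy that binds IL-1 without signaling. Il1rl1 encodes ST2, the receptor for IL-33, known from regulatory T cells, type 2 cells and mast cells. Ifngr1 encodes the ligand-binding chain of the interferon gamma receptor, which most cell types carry.

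Of the list, 4 genes lie in 1 cluster of IL-1 family receptors on chromosome 1 (GRCm38.p6, the assembly of the mm10 build, from RefSeq). Il1r2 (ENSMUSG00000026073) spans chr1:40084692-40125230, Il1rl1 (ENSMUSG00000026069) chr1:40404864-40465418, Il18r1 (ENSMUSG00000026070) chr1:40465552-40500854 and Il18rap (ENSMUSG00000026068) chr1:40515362-40551707. Il1r1 and Il1rl2, which are not members, lie between Il1r2 and Il1rl1. The other members lie apart: Il2rb (ENSMUSG00000068227) at chr15:78479256-78511621, Il2rg (ENSMUSG00000031304) at chrX:101264385-101268255 and Il12rb1 (ENSMUSG00000000791) at chr8:70808360-70823542. Il12rb2 (ENSMUSG00000018341) is at chr6:67285986-67376293, Il21r (ENSMUSG00000030745) at chr7:125603252-125634397 and Ifngr1 (ENSMUSG00000020009) at chr10:19591949-19610229. All are annotated as protein-coding, and UMIs (unique molecular identifiers, 1 per captured transcript) were counted per gene.

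The library gave 5586 cells with a median of 4822 UMIs, of which hashtags assigned 1928 to WT, 2107 to RARα-KO and 895 to RARα-TG, with 17768730, 16292445 and 4011140 gene UMIs. WT gave 842 CD8 T cells, RARα-KO gave 1175 and RARα-TG gave 113. Where 3 values stand together, the first is that of WT, the second of RARα-KO and the last of RARα-TG. CD4 T cells without a Foxp3 UMI (Foxp3 is the lineage factor of regulatory T cells) numbered 95, 165 and 111, and those with one 120, 79 and 150. Myeloid-like cells, a cluster led by macrophage genes joined with one led by neutrophil genes, numbered 87, 164 and 45. All 8 T cell markers were detected in the CD8 T cells of each genotype, and markers of regulatory T cells (Foxp3, Ikzf2, Il2ra, Ctla4 and Tnfrsf18) summed to 5497 to 6125 CPM (UMIs of a gene per 1e6 gene UMIs of the class) in Foxp3-positive cells against 1574 to 2111 CPM in Foxp3-negative cells. Foxp3 is at 0 in Foxp3-negative cells by the gate, so its part of this difference was fixed in advance. Since Foxp3 is sampled sparsely, the Foxp3-negative cells can hold regulatory T cells. Rara itself was at 85.4, 78.5 and 190.8 CPM in CD8 T cells. The RARα-TG label was thus met by a higher level, while reads at the 5′ end need not cover the deleted part of Rara and do not check the RARα-KO label.

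Between the CD4 T cell classes, Il12rb1 and Il1rl1 were higher in Foxp3-positive cells, Il12rb2, Il18r1, Il18rap and Il21r were lower there, and Il2rb, Il2rg, Il1r2 and Ifngr1 did not pass the test. Il2rg, Il12rb1, Il1r2 and Il1rl1 were lower in CD8 than in Foxp3-positive CD4 T cells. The test was edgeR's quasi-likelihood test on UMI sums of 3 tumors per class with the tumor as a block. Its p-values thus measure how far the class differences vary between 3 tumors of different genotype, with the spread shared across genes. A genotype effect that differs between classes is part of that variation. Of the 10 genes tested, 2 were higher and 4 lower in Foxp3-positive than in Foxp3-negative CD4 T cells, where 5.44% of all genes tested were higher and 4.2% lower. CD8 T cells had 0 members higher and 2 lower than Foxp3-negative CD4 T cells, against 2.87% and 4.78% of all genes. No member passed in the higher direction there in edgeR, and thinning each cell to 1000 UMIs gave 1. Against Foxp3-positive CD4 T cells, CD8 T cells had 4 members higher and 4 lower, against 11.2% and 12.7% of all genes.

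**Figure D1:**
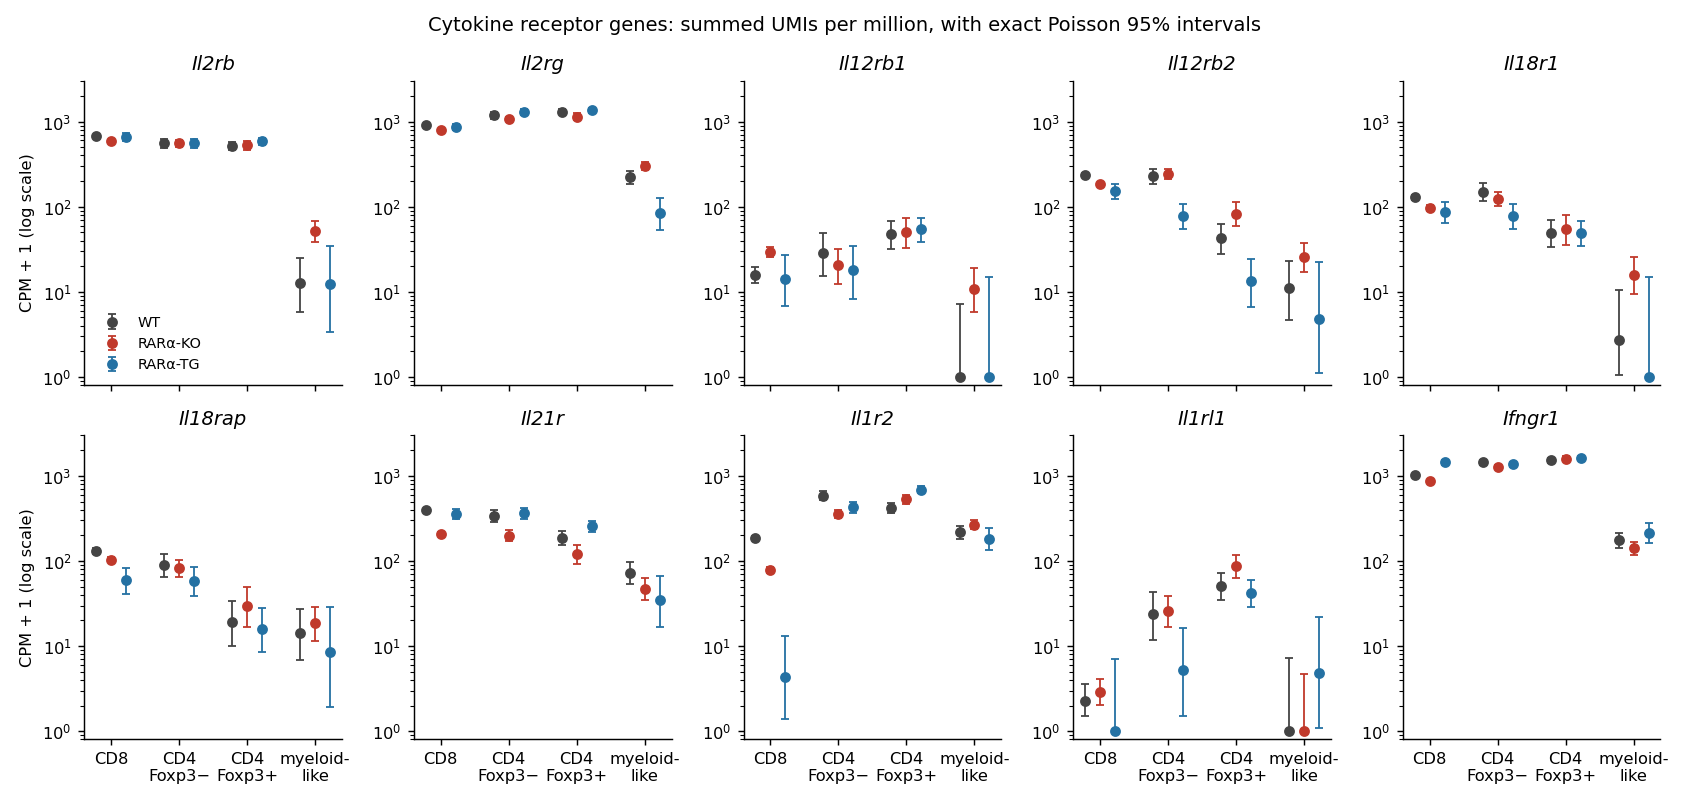
Level of each receptor gene in CPM (log axis) in the 4 cell classes, with 1 point per genotype and bars for the exact Poisson 95% interval. Ifngr1 and Il2rg are the highest genes in the 3 T cell classes, with Il2rb or Il1r2 next in the CD4 classes, and Il1rl1 is the lowest in CD8 T cells, with 0 to 1.85 CPM.

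Between genotypes, a member was called where its level differed from WT by 1.5-fold or more with an interval that excludes equality, among genes with a mean of at least 0.1 UMI per cell over the 3 genotypes. In CD8 T cells, 9 members passed this filter (not Il1rl1), and in RARα-KO 1 was called higher (Il12rb1) and 2 lower (Il21r and Il1r2), beside 3.57% and 2.45% of all genes. Il12rb1 passed only through RARα-KO (230 UMIs in 1175 cells), as WT (83 in 842) and RARα-TG (8 in 113) were under 0.1 UMI per cell. The filter thus favored a higher call for it. In RARα-TG CD8 T cells 0 were called higher and 4 lower (Il12rb2, Il18r1, Il18rap and Il1r2), beside 8.42% and 8.2% of all genes. In Foxp3-negative CD4 T cells the same 9 passed, with 0 higher and 2 lower in RARα-KO (Il21r and Il1r2; 2.98% and 6.05% of all genes) and 0 higher and 2 lower in RARα-TG (Il12rb2 and Il18r1; 3.8% and 4.52% of all genes). In Foxp3-positive CD4 T cells all 10 passed, with 2 higher (Il12rb2 and Il1rl1) and 1 lower (Il21r) in RARα-KO, beside 3.53% and 3.63% of all genes. RARα-TG had 1 higher (Il1r2) and 1 lower (Il12rb2) there, beside 5.52% and 4.62% of all genes. In myeloid-like cells 5 passed, with 1 higher (Il2rb) and 1 lower (Il21r) in RARα-KO, beside 6.27% and 6.54%, and 0 higher and 2 lower (Il2rg and Il21r) in RARα-TG, beside 6.2% and 7.09%. Il2rb likewise passed there only through RARα-KO (51 UMIs in 164 cells), with 7 in 87 for WT and 3 in 45 for RARα-TG.

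**Figure D2:**
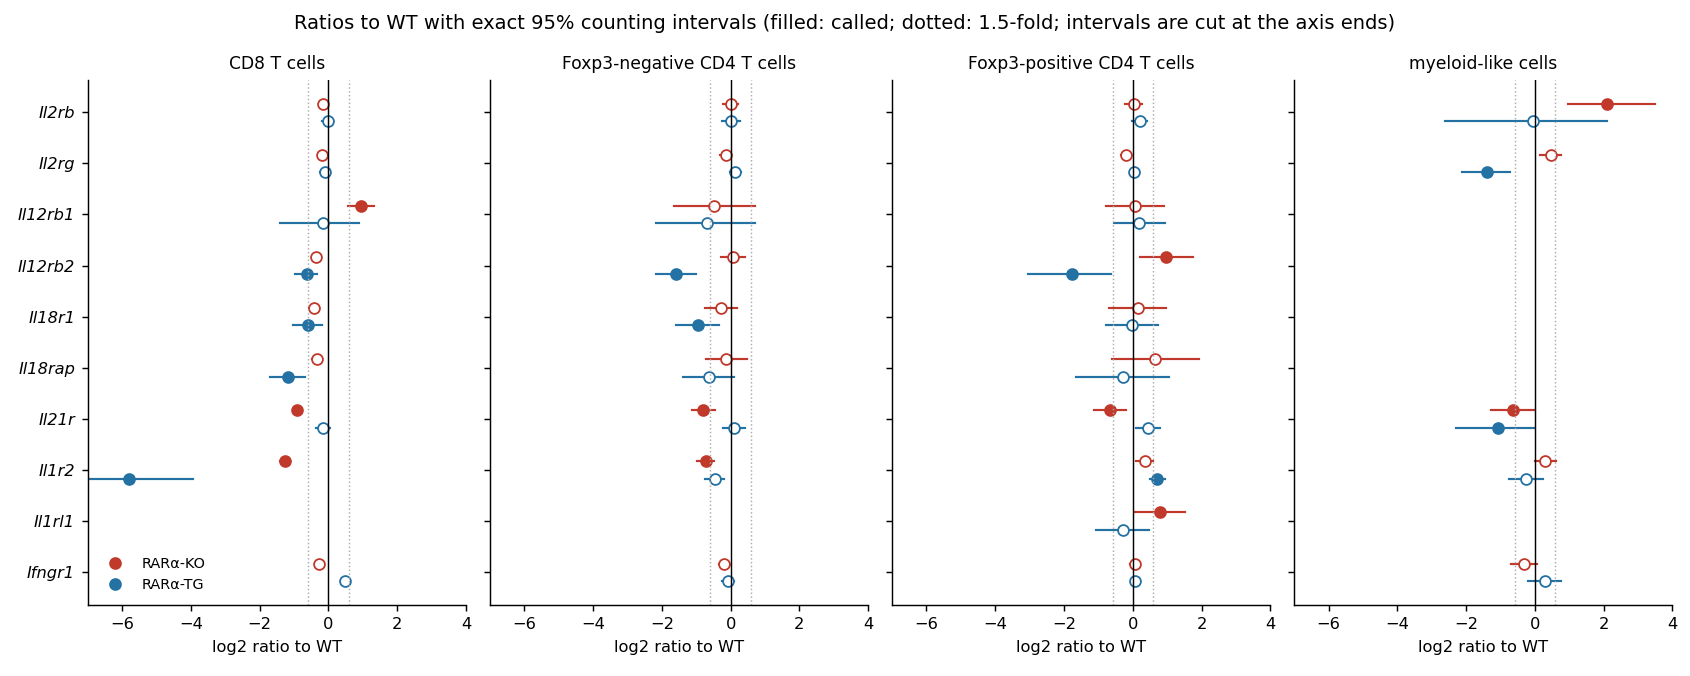
Log2 ratio of CPM to WT for each receptor gene in RARα-KO and RARα-TG, by cell class, with 95% counting intervals. Il21r lies below 0 in RARα-KO in all 4 classes, and Il12rb2 lies below 0 in RARα-TG in all 3 T cell classes.

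Il2rb was among the most even receptors. CD8 T cells of WT held 671.1 CPM (Poisson interval 649.9 to 692.9), against 596.3 CPM for RARα-KO and 658.7 CPM for RARα-TG. Foxp3-negative CD4 T cells held 553.5, 553.7 and 560.1 CPM, and Foxp3-positive CD4 T cells 515.3, 524.1 and 590.8 CPM. The CD8 value lay above both CD4 values in each tumor, but CD8 against Foxp3-positive CD4 T cells missed the threshold in edgeR (adjusted p = 0.0523). After thinning to 1000 UMIs per cell, 49.2%, 45.6% and 45.1% of CD8 T cells had an Il2rb UMI, against 0 of 273, 132 and 19 MC38 or stromal cells, which are not known to use the gene. Unthinned, 91.8%, 91.1% and 85.8% of CD8 T cells and 3.30%, 5.30% and 10.5% of MC38 or stromal cells had one, at median depths of 5667.5, 5603 and 4680 UMIs in CD8 T cells and 29930, 30676 and 19337 UMIs in MC38 or stromal cells.

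Il2rg, the common gamma chain, was higher in CD4 than in CD8 T cells. It stood at 922.1, 804.6 and 857.9 CPM in CD8 T cells, at 1180, 1071 and 1300 CPM in Foxp3-negative CD4 T cells and at 1314, 1147 and 1360 CPM in Foxp3-positive CD4 T cells. Within each tumor the CD8 value lay below both CD4 values. CD8 T cells were lower than Foxp3-positive CD4 T cells by a log2 difference of -0.45 (edgeR, adjusted p = 0.0129), a call that was lost without the WT tumor or without the RARα-KO tumor, with an adjusted p of up to 0.112 over the alternatives. No T cell class had a call between genotypes. Both Il2rb and Il2rg were seen in the same cell in 29.3%, 24.5% and 26.1% of thinned CD8 T cells, and in 31.9%, 27.8% and 33.3% of Foxp3-positive CD4 T cells.

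Il21r was the member that was lower in RARα-KO in every class. The WT CD8 T cells held 393.5 CPM (377.2 to 410.2), those of RARα-KO 208.0 CPM (198.2 to 218.2) and those of RARα-TG 353.4 CPM (307.6 to 404.2). The RARα-KO value was lower than WT by a log2 ratio of -0.92 (-1.01 to -0.83), while the RARα-TG interval included equality. The ratio passed the call in 11 of 11 alternative settings, between -1.02 and -0.81. Foxp3-negative CD4 T cells gave 341.7, 197.9 and 364.9 CPM, again with RARα-KO lowest, at a log2 ratio of -0.79 (-1.11 to -0.46). Foxp3-positive CD4 T cells gave 186.8, 118.7 and 254.6 CPM and a log2 ratio of -0.65 in RARα-KO (-1.14 to -0.18). That last ratio was -0.04 when Foxp3-positive cells needed 2 Foxp3 UMIs, and the call then ended.

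The share of thinned cells with an Il21r UMI was also lowest in RARα-KO, with 30.1%, 17.4% and 31.5% of CD8 T cells, against 0 of 273, 132 and 19 MC38 or stromal cells. Unthinned shares were 72.9%, 59.2% and 67.3% of CD8 T cells and 1.83%, 3.79% and 5.26% of MC38 or stromal cells. Il21r and Il2rg, the 2 chains of the IL-21 receptor, were seen together in 17.7%, 9.71% and 21.6% of thinned CD8 T cells. Across the classes, Il21r was lower in Foxp3-positive than in Foxp3-negative CD4 T cells (log2 difference -0.70, SE 0.15, edgeR adjusted p = 0.0139) and higher in CD8 than in Foxp3-positive CD4 T cells (0.90, adjusted p = 0.000989). The first call was lost without the WT tumor, without the RARα-KO tumor, without the tumor block and after thinning, with an adjusted p of up to 0.276 over the alternatives. The second was lost without the block.

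The IL-12 receptor chains differed from each other in where they were high. Il12rb2, the signaling chain, stood at 234.5, 181.4 and 151.0 CPM in CD8 T cells, at 227.8, 239.1 and 76.4 CPM in Foxp3-negative CD4 T cells and at 41.7, 81.9 and 12.2 CPM in Foxp3-positive CD4 T cells (25, 40 and 9 UMIs). RARα-TG was the lowest genotype in all 3 classes. Its log2 ratio to WT was -0.64 in CD8 T cells (-0.96 to -0.33), -1.58 in Foxp3-negative CD4 T cells (-2.17 to -1.01) and -1.77 in Foxp3-positive CD4 T cells (-3.05 to -0.62). The CD8 call passed in 7 of 11 alternatives, between -1.14 and -0.36, and the Foxp3-negative call in 11 of 11. In RARα-KO, Il12rb2 was called higher only in Foxp3-positive CD4 T cells (0.97, 0.22 to 1.76), and the ratio in CD8 T cells was -0.37 (-0.48 to -0.26). Whether these ratios differ between classes was not tested.

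By class, Il12rb2 was lower in Foxp3-positive than in Foxp3-negative CD4 T cells, at a mean of 45.3 ± 35.0 CPM (SD, n = 3 tumors) against 181.1 ± 90.9 CPM. The log2 difference was -2.07 (SE 0.35, edgeR adjusted p = 0.00345), and it no longer passed without the WT tumor (-1.90) or without the block (-2.09). Ranges of the 2 classes overlapped across tumors, as RARα-TG Foxp3-negative cells (76.4 CPM) lay below RARα-KO Foxp3-positive cells (81.9 CPM), but within each tumor the Foxp3-positive value was the lower one. CD8 T cells were higher than Foxp3-positive CD4 T cells by 2.31 (adjusted p = 0.000411), a call kept in 11 of 11 alternatives.

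Il12rb1, the chain shared with the IL-23 receptor, was low in all classes and highest in Foxp3-positive CD4 T cells. Those cells held 46.7, 49.1 and 53.1 CPM, Foxp3-negative cells 27.3, 19.4 and 16.97 CPM, and CD8 T cells 14.8, 28.4 and 13.3 CPM (83, 230 and 8 UMIs). Within each tumor the Foxp3-positive value was the highest of the T cell classes. The log2 difference from Foxp3-negative cells was 1.32 (SE 0.33, edgeR adjusted p = 0.0299), and the call held in 5 of 10 alternatives. It was lost without each of the 3 tumors in turn, with a difference of 1.18 to 1.51, without the tumor block (1.24) and in DESeq2 (1.28). CD8 T cells were lower than Foxp3-positive cells by a log2 difference of -1.25 (adjusted p = 0.00618), a call lost without the WT tumor (-1.09). In RARα-KO CD8 T cells, Il12rb1 was called higher than WT at 0.94 (0.57 to 1.32), and RARα-KO alone carried it past the filter. Thinned to 1000 UMIs per cell, the ratio was 0.21 (-0.85 to 1.33) with 13 WT and 21 RARα-KO cells having a UMI, so that the difference was not detectable at that depth.

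The IL-18 receptor chains ran in parallel and were both low in Foxp3-positive CD4 T cells. Il18r1 stood at 127.8, 95.8 and 84.6 CPM in CD8 T cells, at 148.1, 122.4 and 76.4 CPM in Foxp3-negative CD4 T cells and at 48.4, 53.2 and 47.6 CPM in Foxp3-positive CD4 T cells. Il18rap, the accessory chain, stood at 130.1, 102.4 and 58.1 CPM, at 88.8, 81.2 and 57.3 CPM and at 18.3, 28.7 and 14.97 CPM (11, 14 and 11 UMIs) in the same order. In each tumor both genes were lower in Foxp3-positive CD4 T cells than in the other T cell classes. The log2 difference of Foxp3-positive from Foxp3-negative CD4 T cells was -1.20 for Il18r1 (SE 0.20, edgeR adjusted p = 0.0035) and -1.89 for Il18rap (SE 0.25, adjusted p = 0.000805). CD8 T cells were higher than Foxp3-positive cells by 1.13 for Il18r1 (adjusted p = 0.00112) and by 2.35 for Il18rap (adjusted p = 1.99e-05), both in 11 of 11 alternatives. Il18r1 between the CD4 classes was -1.0 without the WT tumor, -1.16 without the RARα-KO tumor and -0.996 after thinning, and the call was then lost. That of Il18rap was lost after thinning (-1.70).

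In RARα-TG both chains were lower than WT in CD8 T cells, Il18r1 by a log2 ratio of -0.59 (-1.03 to -0.18) and Il18rap by -1.16 (-1.70 to -0.67). The first passed in 6 and the second in 10 of 11 alternatives. In RARα-TG Foxp3-negative CD4 T cells Il18r1 was called lower (-0.96, -1.59 to -0.35) and Il18rap was at -0.63 (-1.40 to 0.11). In RARα-KO neither chain was called in any T cell class, and the CD8 ratios were -0.42 (-0.56 to -0.27) and -0.34 (-0.49 to -0.20). Thinned, 12.95%, 9.45% and 7.21% of CD8 T cells had an Il18r1 UMI, against 0 MC38 or stromal cells, and 2.26%, 1.36% and 0.901% had a UMI of both chains.

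RARα-TG CD8 T cells rested on 113 cells and stood apart in other genes. The myeloid marker list summed to 388.3 CPM there, against 82.7 in WT and 48.9 in RARα-KO, and Fcer1g made up 95.7% of it. Of its 10 markers, 7 were at 0 there, Csf1r, C1qa and Adgre1 among them. Markers of gamma-delta T cells summed to 49.8 CPM against 5.88 and 1.61 CPM. Without T cells that held a myeloid marker UMI, an alternative chosen after the data were seen, 2 members in place of 4 were called lower, with ratios of -0.36 for Il12rb2 and -0.54 for Il18r1. The part of these genes in the results was not tested further.

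The CD8 T cells of the genotypes also fell into different expression clusters. Cluster 4, led by Gzmk, Ifit1bl1, Ifi213, S1pr1, Gramd3 and Tcf7, held 54.9% of the RARα-TG CD8 T cells, against 7.60% in WT and 16.2% in RARα-KO. Within it, Il12rb2 was at 233.5, 222.2 and 207.8 CPM, Il18r1 at 131.3, 140.5 and 86.6 CPM and Il18rap at 98.5, 126.1 and 58.9 CPM. RARα-TG had the lowest value of all 3 genes within the cluster, by less for Il12rb2 than over all CD8 T cells. For Il12rb2 it lay within the WT interval (179.8 to 298.2). The WT intervals of Il18r1 (92.0 to 181.8, 36 UMIs) and Il18rap (64.9 to 143.3, 27 UMIs) lay above the RARα-TG values. Differences within the cluster were not tested. Il21r within the cluster was at 474.3, 247.4 and 353.3 CPM, with RARα-KO again lowest. In cluster 6, led by Gzmf and other granzymes, which held 295 WT and 82 RARα-KO CD8 T cells, Il21r was at 405.0 and 107.3 CPM. In cluster 1, led by Serpine2 and Prf1, it was at 180.8 and 178.1 CPM, so the lower RARα-KO level was not present in each cluster. The clusters were drawn with all genes, and their sizes and levels are given as a description.

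**Figure D3:**
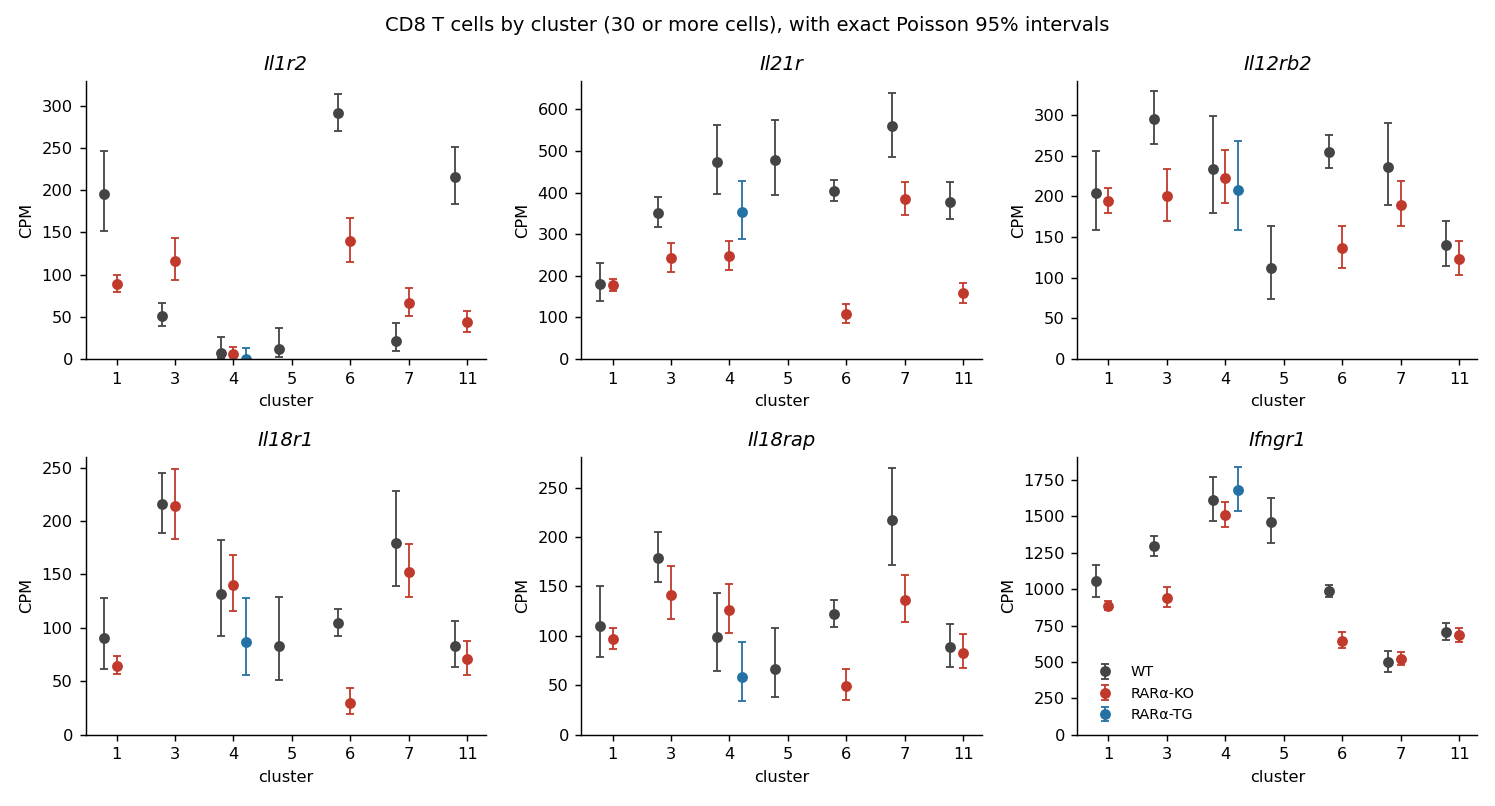
CPM of the receptor genes in CD8 T cells of the expression clusters, with 1 point per genotype that has enough cells and bars for the Poisson 95% interval. Il1r2 in WT is highest in cluster 6, at 291.2 CPM, and Il21r in RARα-KO lies below WT in clusters 3, 4, 6, 7 and 11.

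Il1r2, the IL-1 decoy, was high in both CD4 classes and varied most between genotypes in CD8 T cells. CD8 T cells held 185.7 CPM in WT (1042 UMIs), 78.0 CPM in RARα-KO (631 UMIs) and 3.32 CPM in RARα-TG (2 UMIs). Foxp3-negative CD4 T cells held 585.4, 353.5 and 426.4 CPM, and Foxp3-positive CD4 T cells 418.6, 532.3 and 688.8 CPM. The order of the genotypes was thus not the same in the 3 classes, with WT highest in CD8 and Foxp3-negative cells and RARα-TG highest in Foxp3-positive cells. The log2 ratio of RARα-KO to WT was -1.25 in CD8 T cells (-1.40 to -1.11), -0.73 in Foxp3-negative CD4 T cells (-0.97 to -0.48) and 0.35 in Foxp3-positive CD4 T cells (0.09 to 0.60, not called). RARα-TG gave -5.81 (-8.85 to -3.95), -0.46 (-0.73 to -0.19, not called) and 0.72 (0.50 to 0.94).

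The RARα-TG CD8 value depended on the gate. Counting cells with Cd8b1 and no Cd8a as CD8 T cells added 52 RARα-TG cells with 55 Il1r2 UMIs (289.0 CPM, 217.7 to 376.2), and the ratio became -1.31 (-1.72 to -0.92). Of these 52 cells, 19 had a Foxp3 UMI (36.5%), against 1 of 113 cells of the narrower gate (0.885%). The 88 WT and 109 RARα-KO cells added by the same gate held 24.8 and 95.8 CPM of Il1r2, with a Foxp3 UMI in 8 and 1 of them.

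Il1r2 was concentrated in few cells. In WT 204 of 842 CD8 T cells had a UMI, and in RARα-KO 117 of 1175, where 1 cell held 123 of the 631 UMIs (19.5%). Without the cell with the most UMIs of each genotype, the RARα-KO ratio was -1.51. Thinned, 9.74%, 2.64% and 0% of CD8 T cells had a UMI, with 0 of 111 RARα-TG cells. MC38 or stromal cells gave 0% in WT and RARα-KO and 10.5% in RARα-TG, where 19 such cells were left, and markers of regulatory T cells summed to 202.8 CPM in those RARα-TG cells against 13.1 and 13.6 CPM in the other genotypes. Unthinned, the shares were 24.2%, 9.96% and 1.77% of CD8 T cells and 0.733%, 2.27% and 15.8% of MC38 or stromal cells. Of the 1042 WT UMIs, 714 lay in the Gzmf cluster, where WT had 291.2 and RARα-KO 139.5 CPM, and without that cluster the RARα-KO ratio was -0.55 (-0.75 to -0.35) and the call ended. Clusters did not share 1 direction, with 195.0 CPM in WT and 88.8 CPM in RARα-KO in cluster 1, but 51.4 and 116.4 CPM in cluster 3 and 21.4 and 66.0 CPM in cluster 7.

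By class, Il1r2 was lower in CD8 T cells than in Foxp3-negative CD4 T cells by a log2 difference of -2.23 (edgeR adjusted p = 0.0318) and than in Foxp3-positive CD4 T cells by -2.60 (adjusted p = 0.00619). In each tumor the CD8 value was below both CD4 values. The first call was lost without the WT tumor (-2.98) or the RARα-KO tumor (-2.28) and without the block (-2.12) and in DESeq2 (-2.58), and the second without the RARα-KO tumor (-2.55). The CD4 classes did not differ past the threshold (0.37, SE 0.53, adjusted p = 0.739).

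Il1rl1, the IL-33 receptor, was nearly absent from CD8 T cells, with 7, 15 and 0 UMIs (1.25, 1.85 and 0 CPM). The 0 UMIs in RARα-TG allow up to 3 UMIs by counting alone, in a sum where 8 UMIs stand for 13.3 CPM. Foxp3-positive CD4 T cells held 50.03, 85.99 and 40.84 CPM (30, 42 and 30 UMIs) and Foxp3-negative CD4 T cells 22.8, 25.2 and 4.24 CPM (10, 22 and 2 UMIs). The Foxp3-positive value was the highest of the T cell classes in each tumor. The log2 difference between the CD4 classes was 1.80 (SE 0.34, edgeR adjusted p = 0.00748), with the call lost without the WT tumor (2.10) or the RARα-KO tumor (1.87) and without the block (1.63). CD8 T cells were lower by -3.64 than Foxp3-negative (adjusted p = 0.000574) and by -5.43 than Foxp3-positive CD4 T cells (adjusted p = 2.23e-06), both in 10 of 10 alternatives. In Foxp3-positive cells RARα-KO was called higher than WT (0.78, 0.07 to 1.51). Thinned, the ratio was -0.26 (-2.18 to 1.48), with the opposite sign. Of the 6 mast cell markers, Cpa3, Mcpt4, Fcer1a, Cma1 and Gata2 were at 0 in the Foxp3-positive cells of all genotypes, and Kit had 6, 0 and 3 UMIs in them. The 6 markers of type 2 innate lymphoid cells summed to 2053, 1630 and 2585 CPM there, above the 1292, 802.0 and 2028 CPM of Foxp3-negative cells in each tumor. Areg led that sum in Foxp3-positive cells, and Il5 and Il13 were at 0. The part of these markers in the result was not tested.

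MC38 or stromal cells were the other site of Il1rl1, with 107.2, 49.5 and 168.1 CPM (927, 215 and 63 UMIs), above the Foxp3-positive CD4 T cells of the same tumor in WT and RARα-TG and below them in RARα-KO. Thinned, 6.96%, 6.06% and 15.8% of them had an Il1rl1 UMI, against 6.72%, 6.33% and 6.00% of Foxp3-positive CD4 T cells. Unthinned shares were 50.5%, 43.2% and 52.6% of MC38 or stromal cells and 13.3%, 16.5% and 10.0% of Foxp3-positive cells. Whether the tumor cells or stromal cells of this cluster carried it was not tested.

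Ifngr1 was the highest member in most T cell sums. CD8 T cells held 1034, 863.3 and 1445 CPM, Foxp3-negative CD4 T cells 1440, 1270 and 1366 CPM, and Foxp3-positive CD4 T cells 1536, 1597 and 1612 CPM. CD8 T cells were lower than both CD4 classes in WT and RARα-KO but not in RARα-TG against Foxp3-negative cells. The class differences missed the threshold, with an edgeR adjusted p = 0.0622 for CD8 against Foxp3-positive CD4 T cells. That difference passed without the RARα-TG tumor (-0.63) and with no filter on low counts (-0.40). The RARα-TG ratio in CD8 T cells was 0.48 (0.38 to 0.59), below the 1.5-fold limit, and the RARα-KO ratio -0.26 (-0.31 to -0.21). Within cluster 4 the values were 1616, 1512 and 1683 CPM, closer to each other than over all CD8 T cells. Thinned, 64.5%, 58.9% and 74.8% of CD8 T cells and 7.69%, 4.55% and 15.8% of MC38 or stromal cells had an Ifngr1 UMI.

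Receptor levels also differed with the size of the clonotype, the set of cells with 1 T cell receptor. CD8 T cells of clonotypes of 2 or more cells held more Il2rb than those of clonotypes of 1 cell, at 694.5 against 485.5 CPM in WT and 599.9 against 418.7 CPM in RARα-KO (log2 ratio 0.52 in both). Il1r2 was higher in the larger clonotypes as well, by 1.07 in WT (0.70 to 1.47) and by 3.66 in RARα-KO (2.10 to 5.94, with 3 UMIs in clonotypes of 1 cell). Ifngr1 was lower there, by -0.31 (-0.42 to -0.20) in WT and -0.40 (-0.52 to -0.27) in RARα-KO. Il12rb2 was higher there in WT (0.63, 0.34 to 0.93), while its RARα-KO interval included equality. RARα-TG had 13 cells in such clonotypes. Ifngr1 was higher in them, at 2318 against 1359 CPM (0.77, 0.48 to 1.05), the opposite direction to the other genotypes, and the intervals of the other members included equality or had no UMI to compare. Cells of 1 clonotype share an ancestor, which these intervals do not cover.

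Myeloid-like cells carried some of the receptors at lower levels, and they also held T cell marker UMIs. Il2rb stood at 11.7, 50.4 and 11.4 CPM there (7, 51 and 3 UMIs), and RARα-KO was called higher than WT (log2 ratio 2.10, 0.96 to 3.49). RARα-KO alone carried it past the filter. The 8 T cell markers summed to 149.3, 612.0 and 117.7 CPM in the same cells, and 10.3%, 21.3% and 8.89% of them had a T cell marker UMI. Per 100 T cell marker UMIs, myeloid-like cells held 7.87, 8.24 and 9.68 Il2rb UMIs, against 11.3, 9.40 and 14.5 in CD8 T cells. The other 2 receptors called there were further from CD8 T cells by this measure. Il2rg gave 147.2, 49.4 and 71.0 against 15.5, 12.7 and 18.9. Il21r gave 48.3, 7.59 and 29.0 against 6.61, 3.28 and 7.80. Without the cells that held a T cell marker UMI, 0 members were called higher in RARα-KO. The part of T cell RNA in these values was not tested. Il2rg stood at 219.8, 302.5 and 83.5 CPM, with RARα-TG called lower (-1.40, -2.12 to -0.74).

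Il21r in myeloid-like cells stood at 72.2, 46.5 and 34.2 CPM (43, 47 and 9 UMIs), and both genotypes were called lower than WT, RARα-KO by -0.63 (-1.26 to -0.0035) and RARα-TG by -1.08 (-2.30 to -0.02), with both intervals ending near equality. A single cell held 19 of the 47 RARα-KO UMIs, and without such top cells the RARα-KO ratio was -1.17. Il1r2 stood at 216.4, 265.9 and 182.2 CPM. The cluster led by neutrophil genes, with 10, 37 and 10 cells, held it at 1513, 2316 and 1909 CPM, above every T cell sum. That cluster gave 30 of the 129 WT, 178 of the 269 RARα-KO and 33 of the 48 RARα-TG UMIs, so that most WT UMIs lay in the cluster led by macrophage genes. Ifngr1 stood at 174.5, 139.4 and 212.6 CPM, far below the T cells. Il12rb1, Il12rb2, Il18r1, Il18rap and Il1rl1 were under the filter of 0.1 UMI per cell there.

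A small cluster led by genes of MHC class II (21, 27 and 4 cells) held Il1r2 at 643.4, 381.8 and 1506 CPM and Il21r at 230.7, 313.5 and 501.9 CPM, and its 6 neutrophil markers were at 0. A cluster led by Ly6d and Siglech (27, 9 and 13 cells) held Il21r at 182.2, 31.6 and 217.0 CPM. T cell markers summed to 35.5, 8.04 and 177.1 CPM in the first, so RARα-TG, with 4 cells, held the most of both.

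The ligands of these receptors were measured in the same library. Ifng, the ligand of Ifngr1, was called higher in RARα-KO CD8 T cells (395.5 against 116.4 CPM in WT, log2 ratio 1.77) and lower in RARα-TG (31.5 CPM, -1.88). In Foxp3-negative CD4 T cells it was called lower in RARα-KO (-2.02) and in RARα-TG (-0.85). Il1b, which Il1r2 binds, was at 7023, 3992 and 4525 CPM in myeloid-like cells. Il12b UMIs came from the MHC class II cluster, with 101, 49 and 1 UMIs, and none from the T cells or myeloid-like cells. Il15 was at 32.0, 47.0 and 13.3 CPM in MC38 or stromal cells (277, 204 and 5 UMIs), and Il33 gave 0, 2 and 0 UMIs in them. Il18 was at 31.9, 18.8 and 11.4 CPM in myeloid-like cells (19, 19 and 3 UMIs).

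Of 23 other receptor chains and receptor antagonists, 13 were tested between T cell classes. In Foxp3-positive against Foxp3-negative CD4 T cells 3 were higher, Il2ra (2.11), Il6st (1.27) and Il10rb (1.09), and 0 lower, beside 5.44% and 4.2% of all genes. Il2ra, the alpha chain of the IL-2 receptor, is itself a marker of regulatory T cells. CD8 against Foxp3-positive CD4 T cells gave 1 higher and 10 lower, beside 11.2% and 12.7% of all genes. The median log2 difference of the list was -0.84 there, against 0.02 over all genes. Between genotypes, 10 passed the filter in CD8 T cells. Il4ra was called lower in RARα-KO (-0.64), beside 2.45% of all genes. Il10ra (-1.67), Crlf2 (-0.95) and Il2ra (-0.94) were called lower in RARα-TG, beside 8.2% of all genes. In RARα-KO Foxp3-negative CD4 T cells 4 of 11 were lower, Il6st (-1.45), Il2ra (-0.99), Il7r (-0.98) and Il4ra (-0.96), beside 6.05% of all genes.

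Of 16 signaling genes (kinases, Stat factors and adaptors of Myd88), Irak2 (1.04) was among those higher and Stat4 (-1.27) and Stat5a (-0.75) were lower in Foxp3-positive than in Foxp3-negative CD4 T cells by edgeR. Stat4 is the factor that the IL-12 receptor activates. Between genotypes, 0 of the 15 that passed the filter were called in RARα-KO CD8 T cells, beside 3.57% of all genes higher and 2.45% lower. In RARα-TG CD8 T cells Jak3 was lower (-1.08) and Irak2 (0.88), Stat2 (0.83) and Jak2 (0.82) were higher, beside 8.2% and 8.42% of all genes. Jak3 is the kinase bound to the common gamma chain. Of 10 feedback and response genes, 4 were lower in RARα-TG CD8 T cells, Gadd45b (-1.62), Cish (-1.06), Pim1 (-0.96) and Tbx21 (-0.77). Socs3 (1.82) was higher there. All genes gave 8.2% lower and 8.42% higher in that comparison. Cish is an inhibitor induced by IL-2, and Tbx21 the T helper 1 factor. In RARα-KO CD8 T cells Gadd45g (1.21) and Gadd45b (0.73) were higher and Socs2 (-0.66) lower, beside 3.57% and 2.45% of all genes.

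Set beside all genes, the median log2 ratio of the members tested was -0.35 in RARα-KO and -0.16 in RARα-TG CD8 T cells, against 0.02 and 0.01 over all genes tested. It was -0.18 and -0.46 in Foxp3-negative CD4 T cells, against -0.05 and -0.02, and 0.11 and 0.06 in Foxp3-positive CD4 T cells, against -0.0037 and 0.01. The 3 cluster members on chromosome 1 that passed the filter in RARα-TG CD8 T cells, Il1r2, Il18r1 and Il18rap, were all called lower there, beside 8.2% of all genes. Il1r2 rested on 2 RARα-TG UMIs and on the gate, and the Il18r1 call passed in 6 of 11 alternatives. In RARα-TG Foxp3-positive CD4 T cells 1 of 4 (Il1r2) was called, and it was higher, beside 5.52% of all genes.

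The genes whose pattern over the 12 sums of class and genotype was most like a member were found by Pearson's r of log2(CPM + 10) among 6124 genes, as a description, since the sums share 1 library. Il2rb was most like Satb1 (0.995), Skap1 and S1pr4, Il2rg like Ccnd2 (0.99), and Ifngr1 like Mxd4 (0.993). Il12rb1 was most like Tnfrsf9 (0.958) and Ctla4 (0.956), Il12rb2 like Serpinb9 (0.978) and Ms4a4b (0.975), Il18r1 like Rbck1 (0.988) and Stat4 (0.983), and Il18rap like B4galnt1 (0.982). Il21r was most like 4930523C07Rik (0.972) and Pdcd4 (0.962), Il1r2 like Rac1 (0.956) and Il1rl1 like Lpcat1 (0.955).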

How the data were processed

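Single-cell RNA and T cell receptor libraries of pooled MC38 tumor cells were used. The values the authors deposited are raw UMI counts of each gene in all 730308 barcodes (46394322 gene UMIs), with hashtag counts and a table of receptor contigs. The submitters' processing notes name Cell Ranger 6.1.0 and mm10, and the header of the matrix names another major version.

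Cells were called anew with the steps of Cell Ranger (2433 barcodes in the first step, 3153 of 3167 candidates in the second) and held 96.4% of the UMIs. HTODemux of Seurat 5.3.0 gave genotypes. It removed 426 doublets between hashtags and 230 cells without one, and doublets within a genotype stayed. Cells were clustered with scanpy 1.11.5 (Leiden, resolution 1). Scripts ran in Python 3.11.15 with pandas 2.3.3, scipy 1.17.1 and numpy 2.4.6. T cell clusters had a clonotype in over 50% of barcodes, a rule set after the clusters were seen. CD8 T cells had at least 1 Cd8a UMI without Cd4, and CD4 T cells had Cd4 and neither Cd8a nor Cd8b1 UMIs. UMIs were summed per class and genotype and divided by all gene UMIs (CPM). Intervals are exact (Poisson for sums, Clopper-Pearson for shares, conditional binomial for ratios), and 3 UMIs served as the floor of a sum of 0. Thinned values draw 1000 UMIs per cell and leave out shallower cells.

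T cell classes were compared on 9 sums with edgeR 4.0.16 in R 4.3.3 (quasi-likelihood test, TMM, filterByExpr, Benjamini-Hochberg at 0.05 over 6733 genes, tumor as a block, common coefficient of variation 0.150). The block comes from the design, as sums of 1 genotype are cells of the same tumor. Deviations of same-tumor sums correlated at 0.05 to 0.29 over 9 pairs. DESeq2 1.42.0 and other gates, filters and cell calls were alternatives. On simulated Poisson counts for 9349 genes, 95.2% (RARα-KO against WT, CD8 T cells) and 96.4% (RARα-TG) of the ratio intervals held the simulated ratio. That checks how the intervals are computed only, as the simulation had no spread between cells, clonotypes or tumors.

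The members, gene lists and markers were chosen with earlier results of these data known. Members and ligands were all open to description. Of other lists, up to 4 called genes per comparison with the largest change were named. 1 gene of these lists is not reported here. No sequence is printed, as no genome of these genes was used here.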

Additional observations from a re-analysis of the deposited data

Results flagged for a closer look

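For 9 pairs of cell classes the log2 ratio of a member to WT lay on opposite sides of equality with both counting intervals clear of it, among members that passed the filter, and in each case the difference between the classes was not tested, as each genotype is 1 sample. Values are the ratio in the class named first minus that in the second. For RARα-KO, Il2rb gave -2.27 for CD8 T cells against myeloid-like cells, and Il2rg gave -0.66 both for CD8 T cells and for Foxp3-positive CD4 T cells against myeloid-like cells. Il12rb2 in RARα-KO gave -1.34 for CD8 against Foxp3-positive CD4 T cells. Il1r2, the IL-1 decoy, was the most frequent gene here. In RARα-KO it gave -1.60 for CD8 and -1.08 for Foxp3-negative CD4 T cells against Foxp3-positive CD4 T cells. In RARα-TG it gave -6.53 for CD8 and -1.18 for Foxp3-negative CD4 T cells against Foxp3-positive CD4 T cells. Il21r in RARα-TG gave 1.53 for Foxp3-positive CD4 T cells against myeloid-like cells. T cell markers summed to 612.0 CPM in RARα-KO myeloid-like cells against 149.3 CPM in WT. Cells with Cd8b1 and no Cd8a, outside the CD8 gate of these ratios, had a Foxp3 UMI in 9.09% (WT), 0.917% (RARα-KO) and 36.5% (RARα-TG). Their Il1r2 stood at 24.8, 95.8 and 289.0 CPM, so the 2 did not share 1 order of genotypes. The part of these in the flagged values was not tested.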

How the results depend on the processing

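Of 800 single genotype ratios under alternatives, 714 stayed within the counting interval of the main value, 81 moved and 5 reversed; the cause was not tested. Reversed were Il1rl1 in RARα-KO Foxp3-positive CD4 T cells (-0.26) and Il2rg in RARα-KO myeloid-like cells (-0.29) after thinning, Il2rb (0.0035, without the Gzmf cluster) and Il2rg (0.0205, clonotypes weighted equally) in RARα-KO CD8 T cells, and Ifngr1 in RARα-KO Foxp3-negative CD4 T cells (0.10, hashtag margin of 10 times). None of these 5 but Il1rl1 had been called.

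Counts of called members against WT moved as follows. Thinned to 1000 UMIs, RARα-KO CD8 T cells had 0 higher, RARα-TG CD8 T cells 1 lower, RARα-KO Foxp3-negative cells 1 lower, Foxp3-positive cells 0 higher in RARα-KO and 0 lower in RARα-TG, and myeloid-like cells 0 lower in RARα-KO and 1 lower in RARα-TG. Fewer UMIs remain after thinning. Without the Gzmf cluster RARα-KO CD8 T cells had 1 lower. With clonotypes weighted equally, RARα-TG CD8 T cells had 2 lower and RARα-KO Foxp3-negative cells 1 lower. The first step of cell calling alone gave 4 lower in RARα-TG Foxp3-negative cells, 0 lower in RARα-KO and 2 higher and 0 lower in RARα-TG Foxp3-positive cells, and 2 higher in RARα-KO myeloid-like cells. The hashtag margin gave 1 higher in RARα-TG CD8 T cells, 1 lower in RARα-TG Foxp3-negative cells, 0 lower in RARα-KO and 0 higher in RARα-TG Foxp3-positive cells, and 0 lower in RARα-KO myeloid-like cells. It cut CD8 T cells from 842 to 218 in WT and from 113 to 60 in RARα-TG, but only from 1175 to 1142 in RARα-KO. Myeloid-like cells fell from 87 to 16, from 164 to 147 and from 45 to 15, in the usual order. The cells lost were thus unequal between genotypes. What weaker hashtag assignments add to the ratios to WT was not tested further. Foxp3 from 2 UMIs gave 0 lower in RARα-KO and 2 higher in RARα-TG Foxp3-positive cells. T cells by their receptor alone gave 1 higher in RARα-KO Foxp3-positive cells, and 0 higher in RARα-KO and 1 lower in RARα-TG myeloid-like cells. Without the filter, RARα-KO myeloid-like cells had 3 higher. With CPM over genes other than mitochondrial, ribosomal and receptor genes, RARα-TG myeloid-like cells had 1 lower. Chosen after the data were seen, leaving out cells with markers of the other class gave 2 lower in RARα-TG CD8 T cells, 1 higher in RARα-KO Foxp3-positive cells, 0 higher and 2 lower in RARα-KO and 1 higher and 1 lower in RARα-TG myeloid-like cells. Leaving out the top cell of each gene, also chosen then, gave 1 higher in RARα-KO Foxp3-positive cells.

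Without the replicate block (the tumor), Foxp3-positive against Foxp3-negative CD4 T cells had 208 genes higher and 173 lower, with 0 members higher and 2 lower, and CD8 against Foxp3-negative CD4 T cells had 122 higher and 191 lower, with 1 member lower. Thinned, the first comparison gave 129 higher and 114 lower with 0 members higher and 1 lower, the second 102 and 135 with 1 and 1, and CD8 against Foxp3-positive CD4 T cells 303 and 349 with 2 members lower. DESeq2 gave 1 member higher in the first, 114 genes higher and 1 member lower in the second and 457 genes higher in the third. With no filter on low counts the first had 504 genes lower and the second 435 higher and 548 lower. Leaving out 1 tumor in turn left fewer samples. The first comparison then gave 69 to 355 genes higher and 87 to 289 lower, with 0 to 1 members higher and 1 to 4 lower, the second 36 to 227 and 94 to 364 genes, with 1 to 2 members lower, and the third 324 to 716 and 437 to 860 genes, with 2 to 5 members lower and 4 higher each time. The lowest values came without WT. Of 324 single class differences under alternatives, 294 kept their side of the threshold, 27 no longer passed and 3 newly passed. No difference that passed in the main or the alternative fit changed direction. The 113 RARα-TG CD8 T cells and the low UMI sums of Il12rb1, Il18rap and Il1rl1 limit what could be seen.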
